A study of Mus musculus with 4 samples.

Results

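The 9 genes described here control the start of blood clotting and the activation of plasminogen: F3, F8, Thbd, Procr, Tfpi, Tfpi2, Plat, Plau and Plaur. They were chosen by name, as the rows of the deposited count table whose gene identifiers map to these symbols. All 9 were found among 41128 identifiers, and all 9 were among the 21640 genes that reached 10 counts in at least 1 library. The cells came from livers of C57BL/6 mice with experimental alcoholic hepatitis. The mice took 40% of their calories freely from a high-cholesterol, high-fat diet and 60% as alcohol liquid diet through a gastric tube, with an alcohol binge each week. Livers were digested with collagenase, hepatocytes were depleted by slow centrifugation and CD45+ leukocytes were depleted with magnetic beads. The rest was flow sorted by antibodies to Prom1, also called CD133, to CD49f, which is integrin alpha 6, and to CD45. This gave Prom1+CD49f+CD45- cells, Prom1-CD49f+CD45- cells and cells labelled Prom1+CD49f+CD45+, and the presorted CD45- cells were kept as the unsorted starting population. Each of the 4 groups had 1 library made from the pooled RNA of 2 mice. All 4 share the diet and alcohol, so the comparisons are between sort gates, and none bears on the effect of alcohol. With 1 library per group no test across samples was possible, no difference has a replicate check, and no p-value is given.

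Clotting starts when tissue factor (F3), a membrane receptor, binds factor VII and the pair activates factor X. Tissue factor pathway inhibitor (Tfpi) blocks that step, and on endothelium thrombomodulin (Thbd) and the endothelial protein C receptor (Procr) turn thrombin towards activating protein C, which inactivates the cofactors factor V and factor VIII (F8). Clots are dissolved by plasmin, made from plasminogen by tissue-type (Plat) or urokinase-type (Plau) plasminogen activator, the second of which acts on the cell surface through its receptor, uPAR (Plaur). In the liver, hepatocytes make most plasma clotting factors, while factor VIII is made mainly by sinusoidal endothelial cells.

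Levels are CPM, counts relative to library size, after TMM scaling, which uses a trimmed mean of M values (scaled CPM), with an exact 95% Poisson interval. Ratios carry an exact 95% conditional binomial interval, and a gene is called higher, or lower, if both ends of that interval pass 2-fold. Both kinds of interval cover counting error only, and reads amplified without molecular identifiers are not independent molecules. Summed gene counts were between 14670239 and 52293939 per library, lowest in Prom1-CD49f+CD45- cells and highest in presorted cells. Prom1 had 355 scaled CPM in Prom1+CD49f+CD45- cells, 31.1 in Prom1-CD49f+CD45- cells, 11.4 in the library with the label Prom1+CD49f+CD45+ and 67.2 in presorted cells. Ptprc, which encodes CD45, had 6.34, 3.61, 14.6 and 21.0 scaled CPM in the same order. In the third of these libraries, whose label is Prom1+CD49f+CD45+, both genes were thus below presorted cells, which goes against the label. Ptprc there was, however, above both CD45- sorts. Presorted cells, labelled CD45-, had the most Ptprc. Macrophage markers summed to 854 scaled CPM in presorted cells and 136 in the Prom1+CD49f+CD45+ library, and neutrophil markers to 252 and 95.3. The Prom1+CD49f+CD45+ library is called the library labelled CD45+ throughout. A set of 1471 odorant, vomeronasal and trace amine-associated receptor genes, which liver cells should lack, was also counted. Of these, 69.3% had at least 1 count in Prom1+CD49f+CD45- cells, 27.0% in Prom1-CD49f+CD45- cells, 69.3% in the library labelled CD45+ and 12.4% in presorted cells. The 95th percentile of their level, 0.817, 0.353, 1.09 and 0.0450 scaled CPM in that order, is used here as a background level.

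Of the 9 genes, F3 alone was highest in Prom1+CD49f+CD45- cells. Its level was 122 scaled CPM (119 to 126) in Prom1+CD49f+CD45- cells, 55.3 (51.5 to 59.3) in Prom1-CD49f+CD45- cells, 1.61 (1.15 to 2.20) in the library labelled CD45+ and 14.5 (13.4 to 15.7) in presorted cells. No 2 of these intervals overlap, and the highest level was 75.8 times the lowest. In bulk RNA fewer cells of a type and less RNA per cell cannot be told apart, here and in every result that follows. F3 was 8.43-fold higher (7.76 to 9.18) in Prom1+CD49f+CD45- cells than in presorted cells and 3.81-fold higher (3.43 to 4.24) in Prom1-CD49f+CD45- cells than in presorted cells. In the library labelled CD45+, on 40 counts, it was 8.99-fold lower (6.53 to 12.7) than in presorted cells. Its level there was little above the background level of that library, 1.09 scaled CPM, which limits every ratio of F3 that uses it. Between both CD45- sorts, F3 was 2.21-fold higher (2.05 to 2.39) in Prom1+CD49f+CD45- cells than in Prom1-CD49f+CD45- cells, and this call is lost with DESeq2 size factors (1.97-fold) and with the authors' normalized values (1.97-fold). The gene (ENSMUSG00000028128) lies at chr3:121723537-121735048 on the plus strand of mm10, per GENCODE vM21.

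The 8 cholangiocyte markers, genes of bile duct epithelium such as Epcam, Cdh1, Sox9 and Spp1, had a summed level in the same order of libraries as F3. It was 24031 scaled CPM in Prom1+CD49f+CD45- cells, 9161 in Prom1-CD49f+CD45- cells, 380 in the library labelled CD45+ and 3837 in presorted cells, and none was at 0 in any library. Most of each sum came from 1 gene, at 19696, 8194, 309 and 3105 scaled CPM in that order. The median marker, at 486, 167, 8.10 and 82.9 scaled CPM, kept the same order of libraries. All 8 were called higher in Prom1+CD49f+CD45- cells than in presorted cells, and 6 of 8 higher than in Prom1-CD49f+CD45- cells, beside 27.6% and 15.5% of all genes compared. Their part in the F3 result was not tested. By a measure of likeness, the root mean square difference of log2 levels centred over the 4 libraries, the nearest of 13937 genes to F3 were Plet1 (0.13), Fstl3 (0.15) and Bex1 (0.15). Plet1, a surface protein of epithelia, had 772 scaled CPM in Prom1+CD49f+CD45- cells, 286 in Prom1-CD49f+CD45- cells, 11.2 in the library labelled CD45+ and 94.0 in presorted cells.

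The promoters of F3, Tfpi and Plaur are printed because these genes show 3 of the patterns in the set: highest in Prom1+CD49f+CD45- cells, lowest there, and nearly level. Each is the 250 bases before the RefSeq start in GRCm38.p6, written 5′ to 3′ along the gene's own strand. They lie at chr3:121723287-121723536 (plus strand), chr2:84476760-84477009 (minus strand, 1 of 2 Tfpi starts) and chr7:24462233-24462482 (plus strand). Capitals mark matches to the AP-1 motif TGANTCA and to the SP1 box GGGCGG, searched on both strands.
F3: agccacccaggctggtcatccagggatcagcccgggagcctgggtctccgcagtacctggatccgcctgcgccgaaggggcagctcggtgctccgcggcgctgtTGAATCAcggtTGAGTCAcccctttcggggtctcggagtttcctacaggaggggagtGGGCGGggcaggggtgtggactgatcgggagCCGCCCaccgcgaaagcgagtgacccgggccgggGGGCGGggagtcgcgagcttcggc
Tfpi: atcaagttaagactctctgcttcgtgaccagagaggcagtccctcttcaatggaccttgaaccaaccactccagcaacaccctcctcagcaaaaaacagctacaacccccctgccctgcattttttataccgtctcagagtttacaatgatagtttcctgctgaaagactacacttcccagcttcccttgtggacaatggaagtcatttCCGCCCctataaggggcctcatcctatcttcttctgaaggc
Plaur: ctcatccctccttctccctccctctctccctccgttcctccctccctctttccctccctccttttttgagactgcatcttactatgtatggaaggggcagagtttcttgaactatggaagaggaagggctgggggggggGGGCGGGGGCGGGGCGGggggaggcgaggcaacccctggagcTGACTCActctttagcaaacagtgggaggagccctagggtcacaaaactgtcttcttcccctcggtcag
The F3 window held 2 AP-1 matches, at positions -146 to -140 and -135 to -129 from the start, and 3 SP1 boxes, of which 1 was on the minus strand. The Tfpi window held 1 SP1 box, on the minus strand, and no AP-1 match. The Plaur window held 1 AP-1 match, at -69 to -63, and a run of 3 SP1 boxes, of which a pair shares 1 base. Windows were found for 6 of the 9 genes. Of 32851 RefSeq windows of the same length, 6.75% held an AP-1 match and 32.7% an SP1 box. In human cells, AP-1 and Sp1 sites are known to act in the F3 promoter, but a match here is a description of the letters only. Of the remaining windows, those of Procr and of 1 of 3 Tfpi2 starts held 1 AP-1 match each, and those of F8 and of the other Tfpi and Tfpi2 starts held none.

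**Figure D1:**
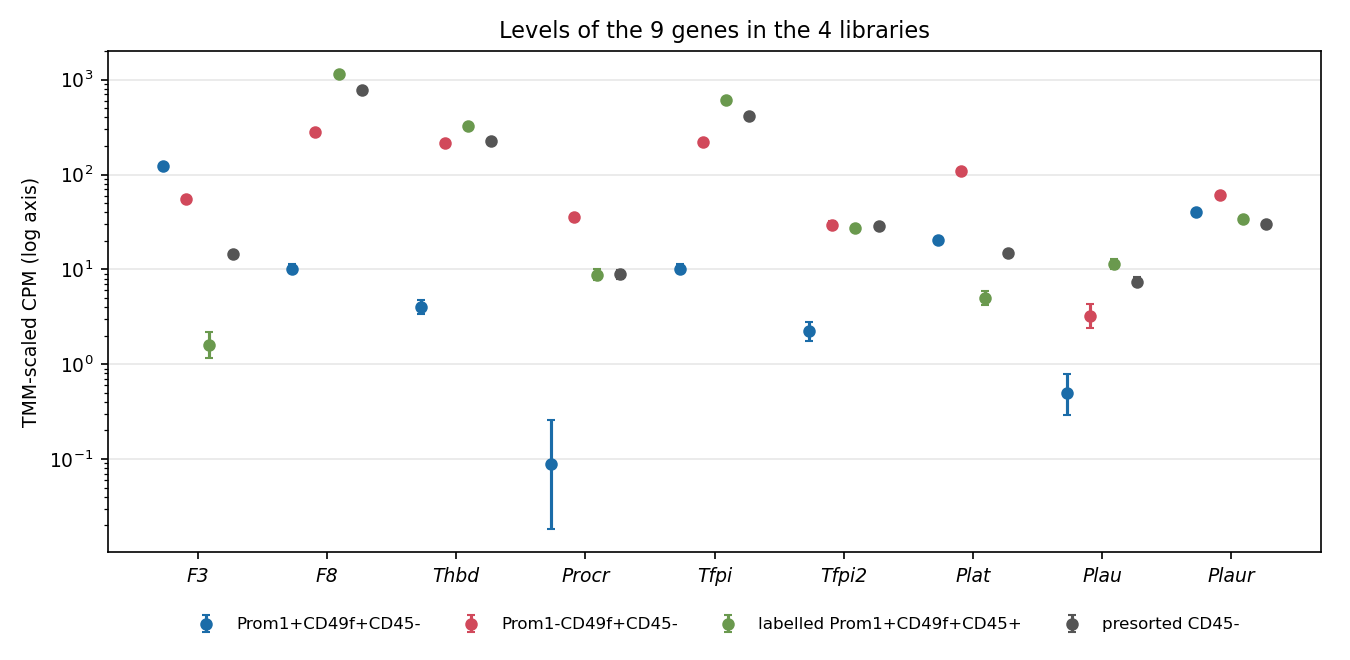
Level of each of the 9 genes in the 4 libraries, in scaled CPM on a log axis, with 1 point per library and its exact 95% Poisson interval. F3 is highest in Prom1+CD49f+CD45- cells at 122 scaled CPM, F8, Thbd, Tfpi, Procr, Tfpi2 and Plau are lowest there, and Plaur lies between 30.0 and 60.5 in all 4.

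Tfpi, the inhibitor of the step that F3 starts, was lowest where F3 was highest. It had 10.1 scaled CPM (9.09 to 11.3) in Prom1+CD49f+CD45- cells, 221 (214 to 229) in Prom1-CD49f+CD45- cells, 612 (603 to 622) in the library labelled CD45+ and 416 (410 to 422) in presorted cells. It was lowest in Prom1+CD49f+CD45- cells and highest in the library labelled CD45+, with no overlap of intervals. Tfpi was 21.9-fold lower (interval 19.6 to 24.5) in Prom1+CD49f+CD45- cells than in Prom1-CD49f+CD45- cells and 41.0-fold lower (36.9 to 45.8) than in presorted cells. The gene (ENSMUSG00000027082) lies at chr2:84432855-84476775 on the minus strand. Tfpi2, a related inhibitor of plasmin and other serine proteases, had 2.25 scaled CPM (1.77 to 2.81) in Prom1+CD49f+CD45- cells, 29.5 (26.8 to 32.5) in Prom1-CD49f+CD45- cells, 27.4 (25.4 to 29.5) in the library labelled CD45+ and 28.4 (26.9 to 30.1) in presorted cells. Those last 3 libraries did not differ beyond their intervals, and only Prom1+CD49f+CD45- cells stood apart, 12.7-fold lower (10.0 to 16.1) than presorted cells. Tfpi2 (ENSMUSG00000029664) lies at chr6:3962595-3988919 on the minus strand.

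Thbd and Procr, the pair of receptors that act on thrombin and protein C, were both lowest in Prom1+CD49f+CD45- cells but peaked in different libraries. Thbd had 4.0 scaled CPM (3.36 to 4.73) in Prom1+CD49f+CD45- cells, 217 (209 to 225) in Prom1-CD49f+CD45- cells, 322 (315 to 329) in the library labelled CD45+ and 227 (222 to 231) in presorted cells. The Prom1-CD49f+CD45- and presorted intervals overlap, and Thbd was 54.2-fold lower (interval 45.7 to 64.8) in Prom1+CD49f+CD45- cells than in Prom1-CD49f+CD45- cells. The gene (ENSMUSG00000074743) lies at chr2:148404466-148408188 on the minus strand. Procr had 0.0876 scaled CPM (0.0181 to 0.256) in Prom1+CD49f+CD45- cells, 35.6 (32.5 to 38.8) in Prom1-CD49f+CD45- cells, 8.79 (7.66 to 10.0) in the library labelled CD45+ and 8.83 (7.97 to 9.75) in presorted cells. It was highest in Prom1-CD49f+CD45- cells, did not differ beyond its intervals between the library labelled CD45+ and presorted cells, and rests on 3 counts in Prom1+CD49f+CD45- cells, below the background level there. Procr was 406-fold lower (interval 138 to 1975) in Prom1+CD49f+CD45- cells than in Prom1-CD49f+CD45- cells, a ratio that rests on those 3 counts. In Prom1-CD49f+CD45- cells it was 4.03-fold higher (3.52 to 4.61) than in presorted cells. The gene (ENSMUSG00000027611) lies at chr2:155751117-155755471 on the plus strand.

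F8, the cofactor that speeds activation of factor X, had 10.1 scaled CPM (9.09 to 11.3) in Prom1+CD49f+CD45- cells, 284 (275 to 292) in Prom1-CD49f+CD45- cells, 1148 (1135 to 1162) in the library labelled CD45+ and 779 (771 to 787) in presorted cells. No 2 of the 4 intervals overlap, and the level was highest in the library labelled CD45+ and lowest in Prom1+CD49f+CD45- cells. F8 was 28.0-fold lower (interval 25.1 to 31.3) in Prom1+CD49f+CD45- cells than in Prom1-CD49f+CD45- cells and 113-fold lower (102 to 126) than in the library labelled CD45+. In Prom1-CD49f+CD45- cells it was 2.75-fold lower (2.66 to 2.84) than in presorted cells, and this call is lost once the trend of ratios with exonic length is removed (ratio 0.567). F8 has the longest exonic sequence of the set, 9905 bases, and across genes the ratio of Prom1-CD49f+CD45- to presorted cells fell with exonic length (Spearman's rho -0.332 over 11727 genes, which are not replicates). F8 (ENSMUSG00000031196) lies at chrX:75172715-75382615 on the minus strand and overlaps Gm6039, Gm8522 and Fundc2 with 0 shared exonic bases.

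The sinusoidal and pan-endothelial marker lists moved with F8, Thbd and Tfpi, while the large-vessel and lymphatic list peaked in another library. The 7 sinusoidal endothelial markers, such as Stab2 and Clec4g, summed to 117 scaled CPM in Prom1+CD49f+CD45- cells, 4686 in Prom1-CD49f+CD45- cells, 14688 in the library labelled CD45+ and 11083 in presorted cells. All 7 were called lower in Prom1+CD49f+CD45- cells than in presorted cells, as were all 8 pan-endothelial markers and 15.6% of all genes compared. None of these markers was at 0. In the library labelled CD45+, none of those 15 markers was called either way against presorted cells, beside 23.8% higher and 12.1% lower over all genes. Many of the genes called higher had few counts: they numbered 5154, and 1788 with at least 50 counts required. The 7 large-vessel and lymphatic markers peaked in Prom1-CD49f+CD45- cells, with a sum of 4089 scaled CPM against 318 in presorted cells. In Prom1-CD49f+CD45- cells 6 of the 7 were called higher, beside 9.77% of all genes. In Prom1-CD49f+CD45- cells the 5 mesothelial markers also summed to 441 scaled CPM, against 136 in presorted cells, and the 6 platelet markers to 42.8, against 21.6. Called higher there were 4 of the 5 and 5 of the 6, beside the same 9.77%. The mesothelial sum was also above presorted cells in Prom1+CD49f+CD45- cells, at 221 scaled CPM, of which 1 gene gave 217. Of the 5, 1 was called higher there and 4 lower, beside 27.6% and 15.6% of all genes. The part of these cell types in the results for F8, Thbd, Procr and Tfpi was not tested.

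By the same measure of likeness, given as a description of 4 libraries with no test, nearest to Thbd were Clec1a (0.06), Fli1 (0.07) and Rcsd1 (0.09), nearest to F8 were Adam23 (0.07), Lrrc32 (0.09) and Arap3 (0.10), and nearest to Tfpi were Lrrc8c (0.07), Enpp6 (0.07) and Sox7 (0.08). Procr was farther from its nearest genes, Arl4d (0.13), Slfn2 (0.17) and Plac8 (0.23). Within the set, F8 and Tfpi differed by 0.39 on this measure and Thbd and Tfpi by 0.45, while F3 differed from F8 by 4.66.

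Plat, which activates plasminogen mainly in the blood stream, had 20.6 scaled CPM (19.1 to 22.2) in Prom1+CD49f+CD45- cells, 108 (103 to 114) in Prom1-CD49f+CD45- cells, 5.0 (4.16 to 5.96) in the library labelled CD45+ and 14.9 (13.7 to 16.0) in presorted cells. It was highest in Prom1-CD49f+CD45- cells, as Procr was, but lowest in the library labelled CD45+. Plat was 5.26-fold lower (interval 4.81 to 5.76) in Prom1+CD49f+CD45- cells than in Prom1-CD49f+CD45- cells, and 7.29-fold higher (6.65 to 8.0) in Prom1-CD49f+CD45- cells than in presorted cells. In the library labelled CD45+ it was 2.97-fold lower (2.45 to 3.63) than in presorted cells, a call lost when scaling by summed counts (ratio 0.426). Prom1+CD49f+CD45- and presorted cells differed by 1.39-fold (1.25 to 1.54), which was not called. The nearest genes by profile were Crip1 (0.19), Cd200 (0.22) and Slc27a3 (0.26). The gene (ENSMUSG00000031538) lies at chr8:22757727-22782844 on the plus strand.

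Plau, unlike Plat, was highest in the library labelled CD45+. It had 0.496 scaled CPM (0.289 to 0.795) in Prom1+CD49f+CD45- cells, 3.25 (2.38 to 4.34) in Prom1-CD49f+CD45- cells, 11.5 (10.2 to 12.9) in the library labelled CD45+ and 7.43 (6.65 to 8.28) in presorted cells. No intervals overlap, and the level in Prom1+CD49f+CD45- cells, 17 counts, was below the background level of that library. Plau was 15.0-fold lower (interval 9.21 to 26.0) in Prom1+CD49f+CD45- cells than in presorted cells. In the library labelled CD45+ it was 1.55-fold higher (1.31 to 1.82) than in presorted cells, which was not called. With the authors' normalized values this ratio was 2.09 and was called, but on the ratio alone, without an interval. The gene (ENSMUSG00000021822) lies at chr14:20836660-20843385 on the plus strand. Its receptor Plaur varied least of the 9, with 39.9 scaled CPM (37.8 to 42.1) in Prom1+CD49f+CD45- cells, 60.5 (56.5 to 64.7) in Prom1-CD49f+CD45- cells, 34.2 (32.0 to 36.6) in the library labelled CD45+ and 30.0 (28.4 to 31.6) in presorted cells. Its highest level was 2.02 times its lowest, and no comparison called it. The ratio of Prom1-CD49f+CD45- to presorted cells was, however, called with summed counts (2.29), DESeq2 size factors (2.27) and the authors' normalized values (2.62). The last of these calls used the ratio alone, without an interval. Plaur (ENSMUSG00000046223) lies at chr7:24462484-24475968 on the plus strand.

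**Figure D2:**
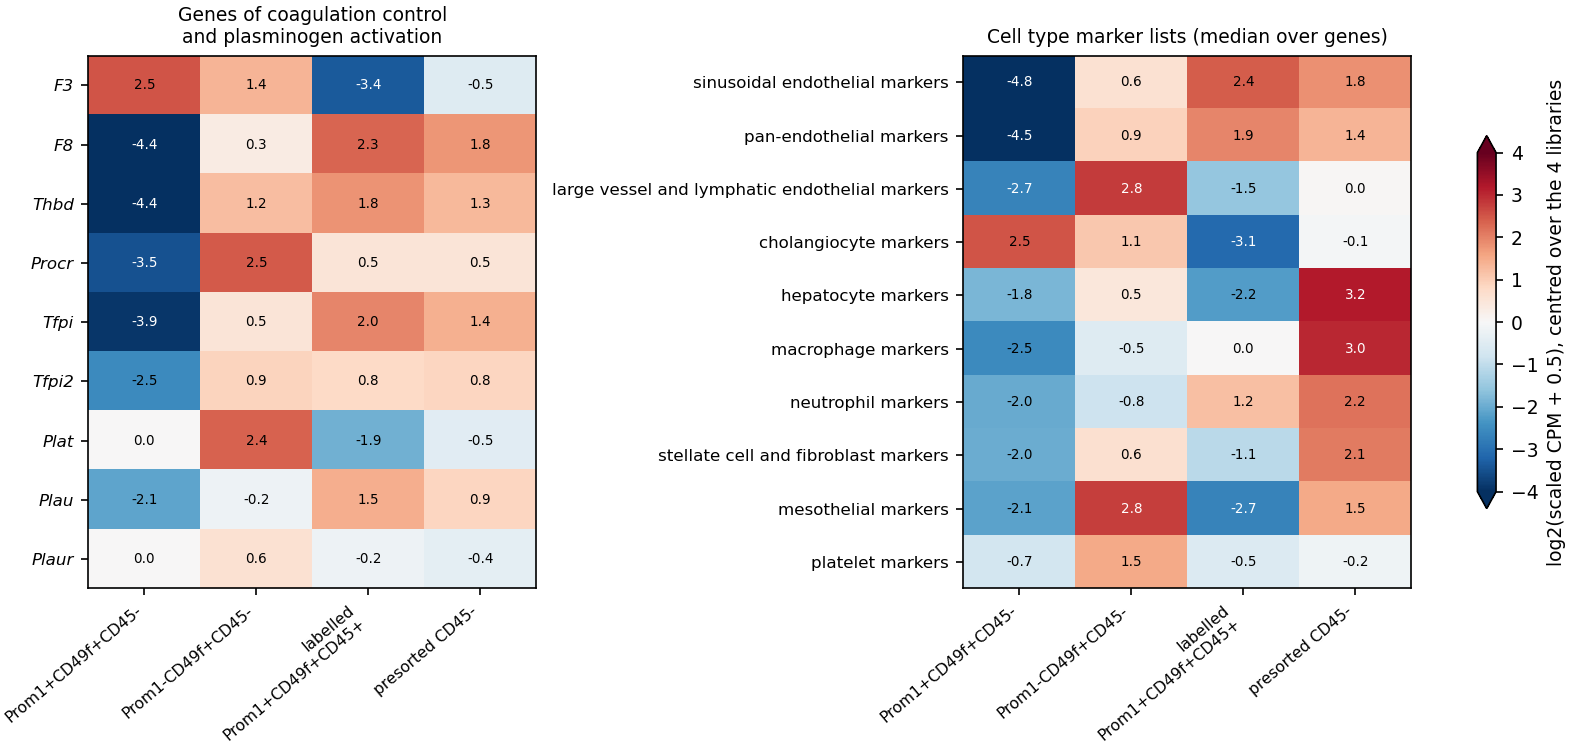
Profile of each of the 9 genes (left) and the median profile of each marker list (right), as log2(scaled CPM + 0.5) centred over the 4 libraries, with colours ending at ±4. F3 and the cholangiocyte markers are both 2.5 in Prom1+CD49f+CD45- cells, and F8 is -4.4 there beside -4.8 for the sinusoidal endothelial markers.

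The 9 genes were compared between libraries to ask how the gates differ in clotting and plasminogen control. Against Prom1-CD49f+CD45- cells, 1 of 9 was called higher in Prom1+CD49f+CD45- cells (F3) and 7 lower, beside 15.5% and 12.7% of all genes compared, and the median log2 ratio was -3.72 for the 9 beside 0.33 for all. Against presorted cells, 1 of 9 was higher and 6 lower in Prom1+CD49f+CD45- cells, beside 27.6% higher and 15.6% lower over all genes, with medians of -3.90 and 0.18. In Prom1-CD49f+CD45- cells, F3, Procr and Plat were called higher than in presorted cells and F8 lower, 3 and 1 of 9 beside 9.77% and 14.1%, with medians of 0.06 and 0.07. In the library labelled CD45+, 0 of 9 were called higher and 2 lower (F3 and Plat) than in presorted cells, beside 23.8% and 12.1%, with medians of 0.19 and 0.10. The shares called higher over presorted cells include many genes with few counts. With at least 50 counts required, which all 9 genes reach, genes called higher fell from 5963 to 3094 in Prom1+CD49f+CD45- cells. They fell from 2115 to 1390 in Prom1-CD49f+CD45- cells and from 5154 to 1788 in the library labelled CD45+. The Prom1+CD49f+CD45- library over that labelled CD45+ gave 2 higher and 6 lower, beside 12.5% and 13.1%, with medians of -4.53 and -0.18. The Prom1-CD49f+CD45- library over that labelled CD45+ gave 3 higher and 3 lower, beside 13% and 17.7%, with medians of 0.11 and -0.41. Those 3 higher were F3 (34.3-fold, 24.9 to 48.4), Procr (4.05-fold, 3.44 to 4.77) and Plat (21.7-fold, 18.0 to 26.2), and the Procr call is lost once the trend with exonic length is removed (2.23-fold). The comparisons share libraries and are not independent of each other.

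**Figure D3:**
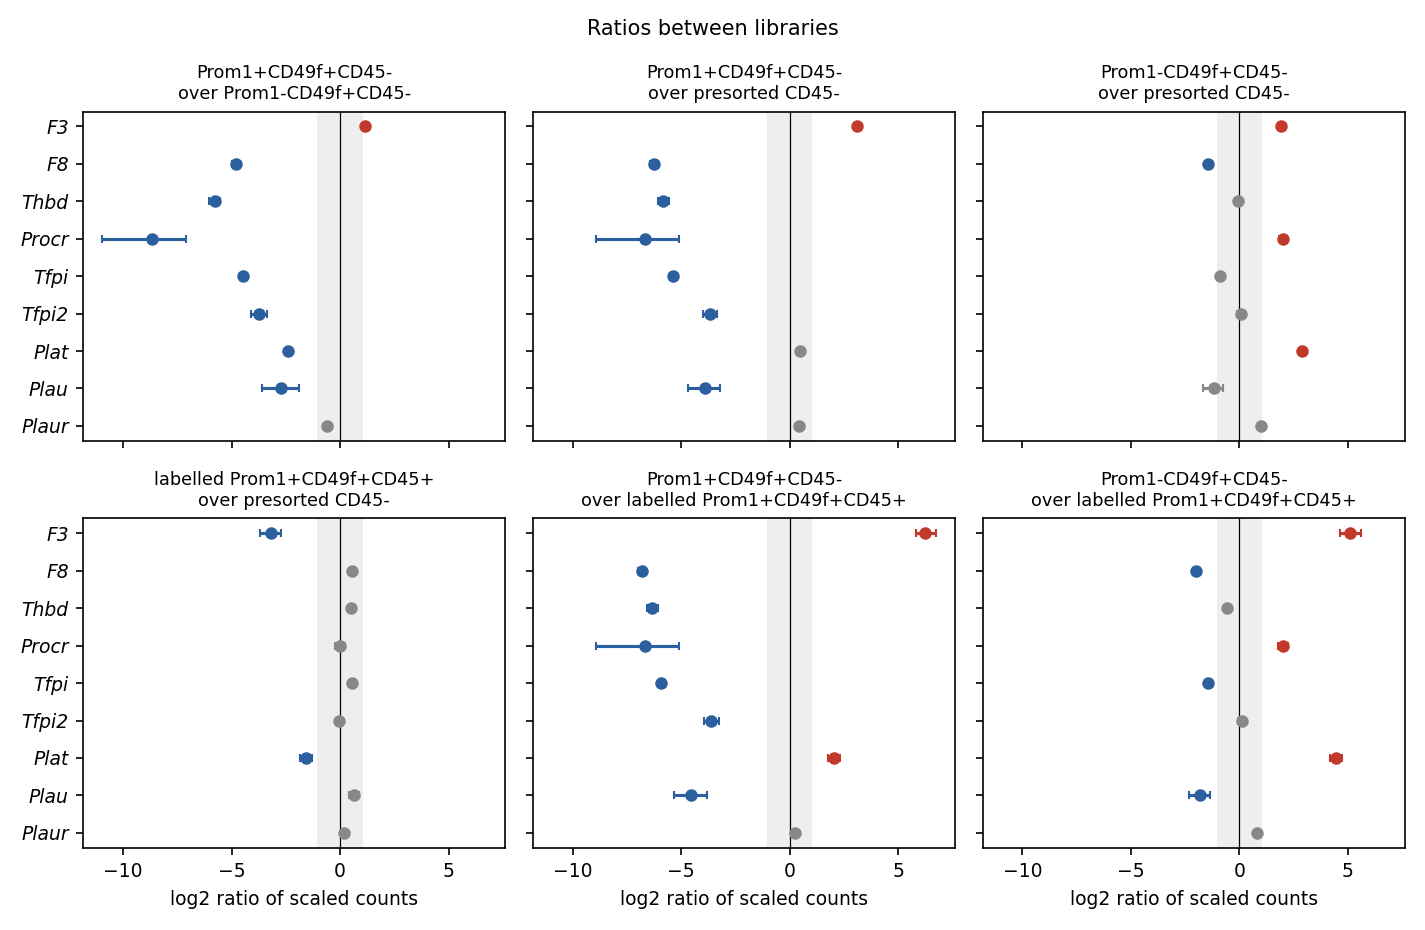
Ratio of each of the 9 genes in 6 comparisons of libraries, as log2, with its exact 95% interval and a grey band for ratios within 2-fold. F3 alone lies right of the band in Prom1+CD49f+CD45- over presorted cells, at an 8.43-fold ratio, while F8, Thbd, Procr, Tfpi, Tfpi2 and Plau lie to the left.

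Dividing counts by exonic length allows 2 genes of 1 library to be compared, on the premise that counts grow with length, which a 3′ tag method would break. Per exonic length, Tfpi to F3 was 0.0383 in Prom1+CD49f+CD45- cells, 1.85 (1.71 to 2.01) in Prom1-CD49f+CD45- cells, 176 (129 to 246) in the library labelled CD45+ and 13.3 (12.3 to 14.4) in presorted cells. Per length, F3 RNA therefore exceeded that of its inhibitor in Prom1+CD49f+CD45- cells and was below it in the other 3 libraries. The ratio of 176 rests on 40 counts of F3, close to the background level of that library. Plat to Plau was 15.8 (9.77 to 27.2) in Prom1+CD49f+CD45- cells, 12.6 (9.43 to 17.3) in Prom1-CD49f+CD45- cells, 0.165 (0.133 to 0.204) in the library labelled CD45+ and 0.759 (0.664 to 0.868) in presorted cells. Plat was thus ahead of Plau in both CD45- sorts, whose ratios have overlapping intervals, and behind it in the library labelled CD45+, with or without division by length. The ratio of 15.8 rests on 17 counts of Plau, below the background level of that library, so the likeness of both sorts is uncertain. In presorted cells the order depends on that division: Plat was behind per length but had 660 counts against 330 for Plau. Procr to Thbd was 0.0401 (0.00818 to 0.120) in Prom1+CD49f+CD45- cells, 0.301 (0.273 to 0.331) in Prom1-CD49f+CD45- cells, 0.0500 (0.0435 to 0.0572) in the library labelled CD45+ and 0.0714 (0.0643 to 0.0789) in presorted cells, highest in Prom1-CD49f+CD45- cells. The ratio of 0.0401 rests on 3 counts of Procr, also below the background level.

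**Figure D4:**
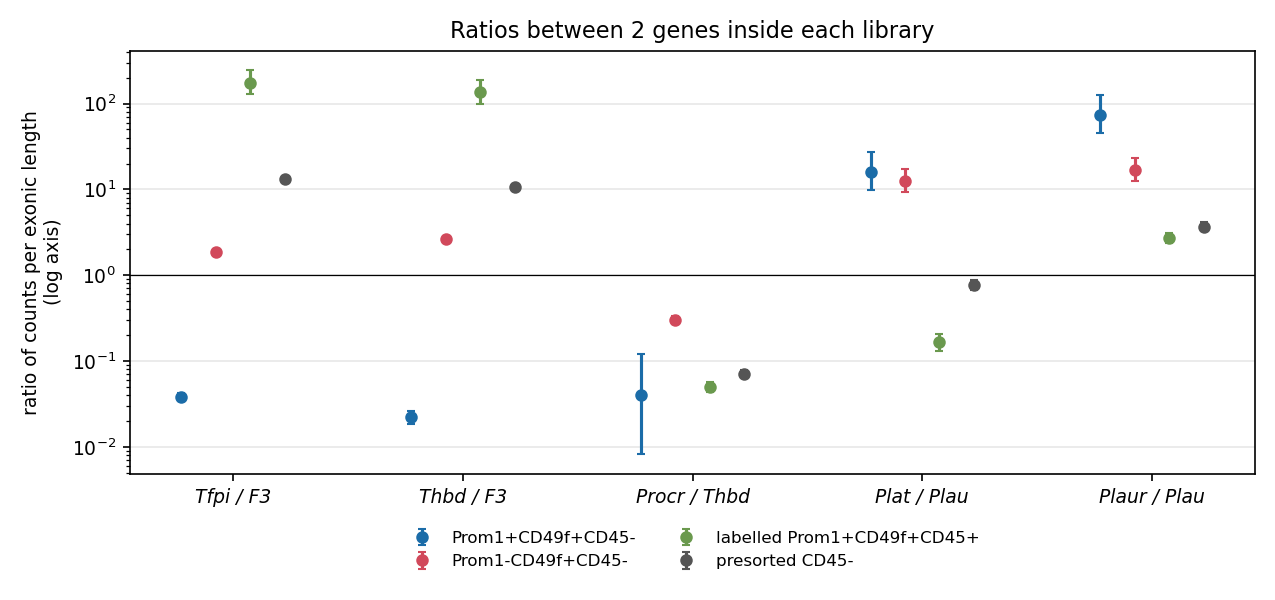
Ratios of pairs of the 9 genes within each library, per exonic length, on a log axis with exact 95% intervals. The Tfpi to F3 ratio is 0.0383 in Prom1+CD49f+CD45- cells and 176 in the library labelled CD45+.

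Other genes of the pathway were grouped by role, and their calls set beside those of the 9. Of all genes compared, 15.6%, 14.1% and 12.1% were called lower than in presorted cells in Prom1+CD49f+CD45- cells, Prom1-CD49f+CD45- cells and the library labelled CD45+. Of the plasma clotting factors, 12 of 13 listed were found, and all 12 were called lower than in presorted cells in each of the 3 sorted libraries. Hepatocyte markers were also lower, with 7, 8 and 8 of 8 called lower in Prom1+CD49f+CD45- cells, Prom1-CD49f+CD45- cells and the library labelled CD45+. Their summed level was 3777, 2755, 334 and 15357 scaled CPM with presorted cells last. In Prom1+CD49f+CD45- cells 1 gene gave 3243 of that sum. The median marker, at 42.9, 215, 27.1 and 761 scaled CPM in the same order, was lower in Prom1+CD49f+CD45- than in Prom1-CD49f+CD45- cells. The part of the hepatocyte markers was not tested. The fibrinogen chain gene Fgb, for example, had 285 scaled CPM in Prom1+CD49f+CD45- cells, 618 in Prom1-CD49f+CD45- cells, 54.5 in the library labelled CD45+ and 3918 in presorted cells. Of the plasma anticoagulants, 5 of the 6 that passed the count minimum were lower in each sorted library than in presorted cells. Proc, the zymogen that Thbd and Procr activate, had 299.7 scaled CPM in Prom1+CD49f+CD45- cells, 111 in Prom1-CD49f+CD45- cells, 7.26 in the library labelled CD45+ and 149.8 in presorted cells. It was 2.70-fold higher (2.56 to 2.85) in Prom1+CD49f+CD45- cells than in Prom1-CD49f+CD45- cells, the opposite direction to Thbd and Procr. Pros1, the cofactor of activated protein C, had 179.5, 364, 938 and 792 scaled CPM in the same order. Its level was 4.41-fold lower (interval 4.29 to 4.53) in Prom1+CD49f+CD45- cells than in presorted cells.

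Of the plasmin system, 11 of 12 genes passed the count minimum. In Prom1+CD49f+CD45- cells 2 were called higher and 7 lower than in Prom1-CD49f+CD45- cells, beside 15.5% and 12.7% of all genes compared. In Prom1-CD49f+CD45- cells 4 of 11 were higher than in presorted cells, the direction of Plat, and 6 lower, beside 9.77% and 14.1% of all genes. The 4 included Anxa2 (2.55-fold, 2.48 to 2.61) and S100a10 (2.26-fold, 2.17 to 2.36), which encode a surface complex that binds plasminogen and Plat, and Serpine2 (5.63-fold, 4.97 to 6.38), an inhibitor of thrombin and plasminogen activators. Plg, plasminogen itself, had 123 scaled CPM in Prom1+CD49f+CD45- cells, 43.8 in Prom1-CD49f+CD45- cells, 11.5 in the library labelled CD45+ and 564 in presorted cells. Of the 4 thrombin and protease-activated receptors, 1 was called higher and 3 lower in Prom1+CD49f+CD45- cells than in Prom1-CD49f+CD45- cells, beside 15.5% and 12.7% of all genes. F2r, the main thrombin receptor of endothelium, had 79.4, 384, 1039 and 788 scaled CPM in that order, and was among the 3 lower genes, at 4.84-fold lower (4.62 to 5.07). F2rl1, which answers to trypsin-like proteases and to the complex of F3 with factor VII, had 37.1, 5.51, 1.25 and 5.81 scaled CPM, and was 6.39-fold higher (5.58 to 7.33) in Prom1+CD49f+CD45- cells than in presorted cells.

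Of the factor VIII carriers and cofactors, 1 of 5 was called higher and 2 lower in Prom1-CD49f+CD45- cells than in presorted cells, beside 9.77% and 14.1% of all genes compared. The higher gene was Vwf, the carrier of factor VIII in plasma, with 15.9 scaled CPM in Prom1+CD49f+CD45- cells, 618 in Prom1-CD49f+CD45- cells, 65.1 in the library labelled CD45+ and 90.4 in presorted cells, so Vwf and F8 peaked in different libraries. Among 5 other antithrombotic genes, 4 were called lower and 1 higher in Prom1+CD49f+CD45- cells than in presorted cells, beside 15.6% and 27.6% of all genes compared. Nos3, the endothelial nitric oxide synthase, was 99.7-fold lower (76.3 to 133), and Anxa5, which covers exposed phosphatidylserine, was 3.52-fold higher (3.47 to 3.56). Of the same 5 genes, 2 were called higher and 1 lower in Prom1-CD49f+CD45- cells than in presorted cells, beside 9.77% and 14.1% of all genes. The 2 higher were Entpd1, which breaks down ADP, at 5.71-fold (5.29 to 6.16) and Ptgis, which makes prostacyclin, at 4.71-fold (4.26 to 5.21).

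**Figure D5:**
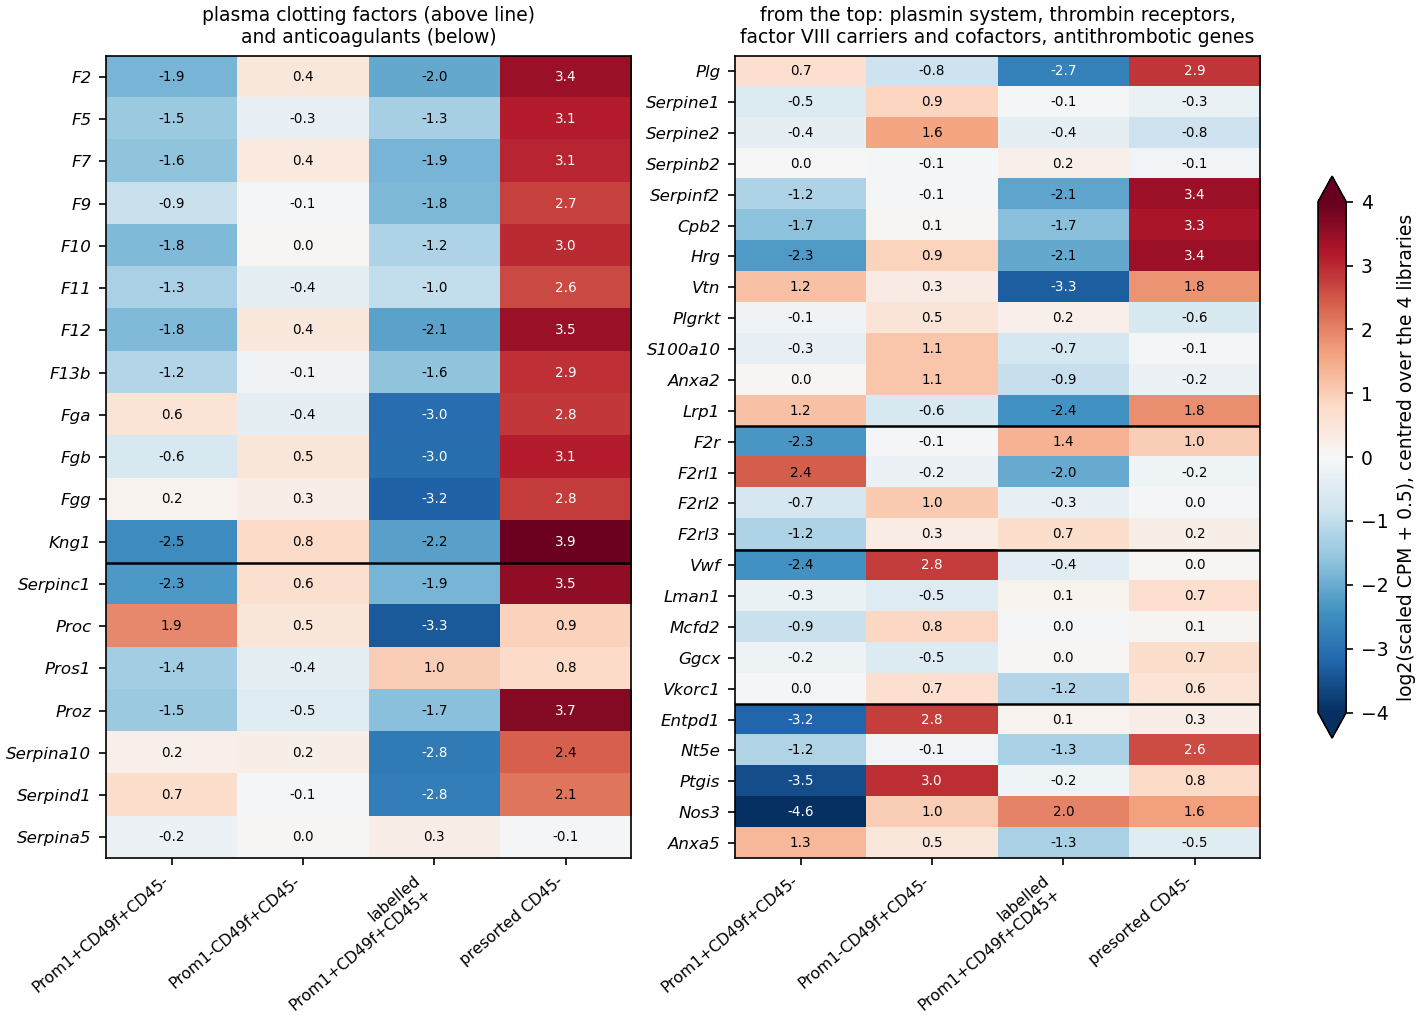
Profiles of the other pathway genes as log2(scaled CPM + 0.5) centred over the 4 libraries, with colours ending at ±4, grouped by role. The 12 clotting factors are highest in presorted cells, F2rl1 is 2.4 in Prom1+CD49f+CD45- cells, and Vwf, Entpd1 and Ptgis reach 2.8 to 3.0 in Prom1-CD49f+CD45- cells.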

How the data were processed

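Libraries were polyA-selected and made with a stranded messenger RNA kit, per the labels' protocols, whereas Quant-seq in the title of the series is a method of 3′ tags. The authors deposited estimated counts per gene and, as a second table, CPM with 1 added to every value, in which gene counts made up 67.1% to 88.4% of the divisor; per the submitters' processing notes, TopHat2, Partek 3 and mm10 were used. Settings, annotation and strand handling were not given in the sources used here. Of the deposited estimated counts, 50.5% to 60.5% were whole in each library. The sorted populations' columns carried the gate numbers of the design text, and the column named CD45 was taken as the presorted cells, the only other population there. Symbols and positions are from GENCODE vM21 (40254 of 41128 identifiers matched), and promoters from RefSeq. Of the listed clotting factors, Klkb1 was not analysed here.

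Estimated counts were rounded, genes with at least 10 counts in a library kept, and TMM factors taken over them with edgeR 4.0.16 (R 4.3.3). Exact intervals were computed with scipy 1.17.1 and checked on simulated data. The simulated counts held counting error only and left out genes with few counts. That check therefore does not bear on amplified reads or on ratios such as that of Procr. Scaling by summed counts or DESeq2 1.42.0 size factors, count minimums, the authors' CPM and removal of a trend with exonic length were the alternatives. With the authors' CPM, a gene was called if its ratio alone passed 2-fold, without an interval. TMM factors from all genes were added after seeing the data. The members, lists and rule for named genes (all 9 members, up to 4 genes per list by mean level plus any needed to show a split, and the 3 genes nearest each member in profile among genes with at least 100 counts in a library) were chosen with earlier results of these data known. Serpine2, outside that rule, was named after its values were seen.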

Additional observations from a re-analysis of the deposited data

Results flagged for a closer look

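Genes of the set that were called in opposite directions, over presorted cells, in different sorted libraries are given here; the difference was not tested, since each group had 1 library, and all these ratios share the presorted library. F3 was at 8.43 times its presorted level in Prom1+CD49f+CD45- cells and 3.81 times in Prom1-CD49f+CD45- cells, but at 0.111 times in the library labelled CD45+. Procr was at 0.00992 times its presorted level in Prom1+CD49f+CD45- cells, on 3 counts, and at 4.03 times in Prom1-CD49f+CD45- cells. Plat was at 7.29 times its presorted level in Prom1-CD49f+CD45- cells and at 0.336 times in the library labelled CD45+.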

How the results depend on the processing

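Each of the 9 genes' ratios in 6 comparisons, 54 in all, was set beside its value under 7 alternatives, and none reversed a call. Alternatives that change the count minimum only keep or drop genes and leave each ratio as it was. They could not change a call of these 9 genes and are no check on it. Calls changed for 3 of 54 ratios with the authors' normalized values, which were called on the ratio alone, without an interval. Calls also changed for 2 ratios with DESeq2 size factors, 2 with summed counts, 2 with the length trend removed and 0 with TMM factors from all genes. The changed ratios stand beside their results. Members called in the library labelled CD45+ over presorted cells numbered 1 with summed counts, against 2. With at least 50 counts required, genes called higher over presorted cells numbered 3094 in Prom1+CD49f+CD45- cells (5963 at the minimum of 10), 1390 in Prom1-CD49f+CD45- cells (2115) and 1788 in the library labelled CD45+ (5154). With the authors' normalized values, 7048 genes were higher (3348 with TMM) and 4561 lower (2759) in Prom1+CD49f+CD45- over Prom1-CD49f+CD45- cells, and 7088 higher (2115) in Prom1-CD49f+CD45- over presorted cells. Over the library labelled CD45+, those values called 6080 genes lower (2830) in Prom1+CD49f+CD45- cells and 8378 lower (3840) in Prom1-CD49f+CD45- cells. The authors' normalized values were called on the ratio alone and the TMM values on the whole interval, so these counts follow unlike rules. The part of the scaling itself was not tested. The share of calls that were higher was 54.8% in Prom1+CD49f+CD45- over Prom1-CD49f+CD45- cells, 66.9% with summed counts and 45.5% with DESeq2. In Prom1-CD49f+CD45- over presorted cells it was 40.9%, 52.5% and 51.5%, and over the library labelled CD45+ 42.2%, 33.3% and 54.6%, in that order of settings. Rescaling moved all log2 ratios of a comparison by -0.17 to 0.42. Procr and Plau rest on 3 and 17 counts in Prom1+CD49f+CD45- cells, both below the background level of 0.817 scaled CPM in that library. F3 rests on 40 counts in the library labelled CD45+, little above the background level of 1.09 scaled CPM there. No paired analysis was possible because each group had 1 library.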
